A study of Mus musculus with 16 samples.

Results

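The 7 genes described here encode the granule proteases and the surface receptors by which mast cells are commonly recognised in mouse tissue. They were taken by name from a table of 29535 genes measured in mouse prostate, with earlier results of these data known. Cma1 and Mcpt4 encode chymases, Tpsb2 a tryptase and Cpa3 the mast cell carboxypeptidase. Kit is the receptor for stem cell factor, and Fcer1a and Ms4a2 encode the alpha and beta chains of the high-affinity receptor for IgE. Of the 7 genes, 5 passed the minimum level used for testing, a mean over all libraries of at least 10 after the values were taken out of log2. Fcer1a and Ms4a2 fell under it and are described separately.

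The 16 libraries were poly-A selected RNA of prostate from mice aged 12 months, all on a mixed background of 129/SvImJ and C57Bl/6J. One set of mice was wild type (+/+) and the other homozygous mutant (-/-) for 1 gene, and each set received either vehicle or finasteride, an inhibitor of the 5-alpha-reductases that make dihydrotestosterone from testosterone. Each vehicle group held 3 libraries and each finasteride group 5. The dose, the length of treatment and the prostate lobes taken are not given in the sources used here, nor is it stated that each library came from a separate mouse, and p-values therefore measure only how much these libraries vary.

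Mast cells arise from bone marrow progenitors that mature only after they enter a tissue, where they need signalling from Kit to survive. Their secretory granules hold chymases, tryptases and carboxypeptidase A3 bound to the proteoglycan serglycin, together with histamine. Cross-linking of IgE on its receptor, which Fcer1a, Ms4a2 and the shared gamma chain Fcer1g form, releases the granules. In mouse, connective tissue mast cells, the kind that sits in stroma around vessels and ducts, are rich in Mcpt4, Cma1, Tpsb2 and Cpa3. Kit is also made outside the mast cell lineage, for example by interstitial cells of Cajal type and melanocytes.

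GATA2, a transcription factor of mast cell progenitors and of prostate epithelium, binds sites built on the letters GATA, so the promoters of the genes were searched for GATAA on either strand (TTATC when it lies on the other strand) over the 250 bases before the start of transcription. The sequences are those of RefSeq on GRCm38.p6, and 6 of the 7 genes were matched, all but Tpsb2. The letters occurred in 5 of the 6, against 22.6% of 32851 mouse promoters of the same length. They stood at position -194 from the start in Cma1, -102 in Mcpt4, -45 in Cpa3, -92 in Fcer1a, and at -224, -37 and -10 in Ms4a2. In Kit they were not found in this window. A match describes the letters and is no evidence of binding. A stretch of 110 bases is printed for each, on the strand of the gene and with the motif in capitals, to show where the letters lie in the matched protease and IgE receptor genes and to set them beside Kit. The stretches lie at chr14:55944766-55944875, chr14:56062311-56062420, chr3:20242182-20242291, chr1:173227230-173227339 and chr19:11623720-11623829 on the minus strand and at chr5:75574877-75574986 on the plus strand. All end at the base before the start except that of Cma1, which ends at position -91.
Cma1: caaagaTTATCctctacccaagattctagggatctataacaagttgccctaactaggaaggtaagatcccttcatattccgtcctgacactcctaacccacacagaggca
Mcpt4: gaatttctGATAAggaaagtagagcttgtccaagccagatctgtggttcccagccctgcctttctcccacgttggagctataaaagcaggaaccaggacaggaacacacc
Cpa3: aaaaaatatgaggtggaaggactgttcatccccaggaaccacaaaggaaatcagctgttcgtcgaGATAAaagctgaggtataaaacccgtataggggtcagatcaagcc
Fcer1a: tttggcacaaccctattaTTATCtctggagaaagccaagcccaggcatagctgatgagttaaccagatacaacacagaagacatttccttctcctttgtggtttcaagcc
Ms4a2: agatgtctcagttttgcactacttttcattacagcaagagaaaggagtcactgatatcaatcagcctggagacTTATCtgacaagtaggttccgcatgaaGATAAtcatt
Kit: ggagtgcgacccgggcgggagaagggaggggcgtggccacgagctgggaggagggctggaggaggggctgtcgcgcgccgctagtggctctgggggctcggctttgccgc

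The deposited values are normalized log2 expression, and read depth per library is unknown. Taken out of log2, they gave library totals of 24.07 to 24.16 (log2) for mutant on finasteride and of 24.31 to 24.55 elsewhere. The totals of mutant on finasteride were thus below all others. Of the markers of the labelled tissue, Epcam, an epithelial adhesion molecule, stood at mean log2 values of 13.09 to 14.01 across the groups. Hoxb13, a prostate homeobox factor, stood at 12.11 to 13.01. Prostate secretion genes differed more between groups. The summed values of 8 such genes were 1953610 to 2055670 in wild type on vehicle and 1160260 to 1811030 in wild type on finasteride. In the mutant they were 585945 to 720530 on vehicle and 245233 to 324657 on finasteride. Summed values of 7 seminal vesicle genes ran from 904 to 3359600 between libraries of wild type on vehicle, from 676 to 20712 in wild type on finasteride, from 100101 to 247175 in mutant on vehicle and from 103055 to 3048800 in mutant on finasteride. In addition, 5 libraries could be written as mixtures of a pair of others of their own group (wild type vehicle 3, wild type finasteride 4, mutant vehicle 3, and mutant finasteride 3 and 4), and the calls of the 5 tested genes are also given without them. The 4 protease genes together made up 0.000390% to 0.00247% of the summed values of a library.

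Finasteride was accompanied by lower protease transcripts in wild type prostate. The chymases Cma1 and Mcpt4, the tryptase Tpsb2 and the carboxypeptidase Cpa3 all fell, by 3.03-fold to 4.33-fold, whereas Kit did not pass the test. In the 3 wild type vehicle libraries Cma1 stood at log2 values of 6.77, 6.58 and 6.50, and in the 5 wild type finasteride libraries at 5.51, 4.48, 4.65, 4.68 and 4.86. Every finasteride library was below every vehicle library, and the difference was -1.78 ± 0.25 (log2, SE; limma adjusted p = 0.000145). Mcpt4, whose product is the chymase most like human chymase in its cutting, read 6.91, 6.35 and 6.75 on vehicle and 5.13, 3.97, 4.15, 4.58 and 4.96 on finasteride. Its groups were equally well separated, with a difference of -2.11 ± 0.34 (limma adjusted p = 0.000347), a 4.33-fold fall. Tpsb2, a trypsin-like protease that is stored as a tetramer, read 6.94, 7.09 and 6.71 on vehicle and 5.96, 4.70, 5.38, 4.83 and 5.38 on finasteride, and it fell by 1.66 ± 0.28 (limma adjusted p = 0.000444). Cpa3, which trims peptides from their C-terminal end, read 6.72, 6.07 and 6.43 on vehicle and 5.28, 4.50, 4.75, 4.73 and 4.78 on finasteride, and it fell by 1.60 ± 0.27 (limma adjusted p = 0.000442). In each of these 4 genes wild type finasteride 1 was the highest of its group.

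Kit read 6.88, 6.33 and 6.86 in wild type on vehicle and 6.78, 6.89, 6.14, 6.39 and 6.53 in wild type on finasteride. These groups overlapped, and the difference was -0.14 ± 0.29 (95% interval -0.76 to 0.48, limma adjusted p = 0.728). Thus 4 of the 5 tested genes were lower and none was higher. Across all 16895 genes tested, 21.9% were lower and 17.9% higher in this comparison, and 18.9% were lower with no overlap between the groups, which held for those 4 genes. The median difference of the 5 genes was -1.66, beside -0.028 over all genes tested. The 4 calls held over the 11 libraries that did not meet the cutoff for mixtures, with limma adjusted p from 0.0226 to 0.0358. There 844 of all 16895 genes were called lower, beside 3694 over all 16 libraries. In bulk tissue, fewer mast cells and less of a transcript per mast cell cannot be told apart.

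**Figure D1:**
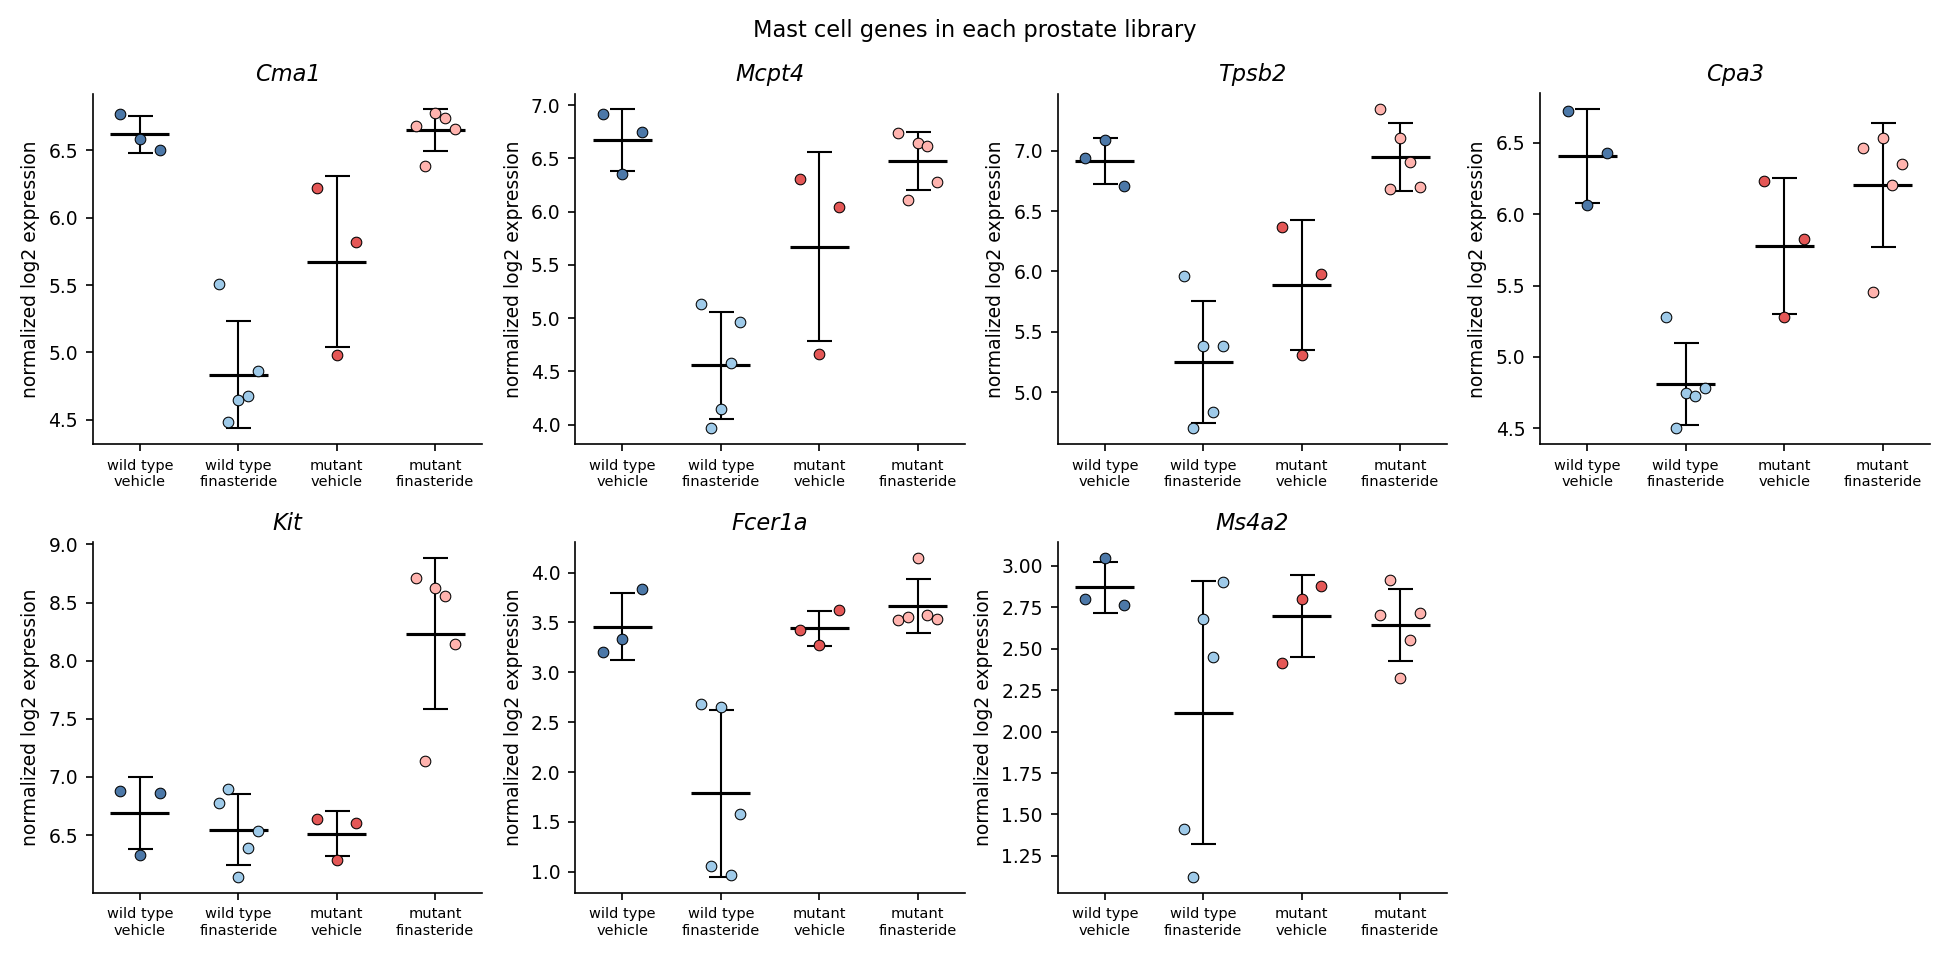
Normalized log2 expression of the 7 genes (vertical axes, scaled for each gene) in the 16 libraries, grouped by genotype and treatment; points are libraries, bars group means and error bars SD (n = 3 or 5). By group mean, the 4 protease genes are lowest in wild type on finasteride, and Kit is highest in mutant on finasteride, where its 5 libraries lie between 7.13 and 8.71.

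In the mutant, finasteride went with a different pattern. Cma1, Tpsb2 and Kit rose, Mcpt4 and Cpa3 did not pass the test, and none of the 5 was lower. Cma1 read 6.22, 4.98 and 5.82 in the mutant vehicle libraries and 6.68, 6.38, 6.78, 6.74 and 6.66 in the mutant finasteride libraries, a rise of 0.97 ± 0.25 (limma adjusted p = 0.00505) with no overlap. Tpsb2 read 6.37, 5.31 and 5.98 on vehicle and 7.34, 6.68, 7.11, 6.91 and 6.70 on finasteride, and it rose by 1.06 ± 0.28 (limma adjusted p = 0.00533), again with no overlap. Mcpt4 read 6.31, 4.66 and 6.05 on vehicle and 6.74, 6.11, 6.64, 6.62 and 6.27 on finasteride. Its groups overlapped, and the difference of 0.80 ± 0.34 missed the threshold (95% interval 0.08 to 1.53, limma adjusted p = 0.0617). Cpa3 read 6.23, 5.28 and 5.82 on vehicle and 6.46, 5.46, 6.53, 6.21 and 6.36 on finasteride, with a difference of 0.42 ± 0.27 (95% interval -0.14 to 0.99, limma adjusted p = 0.201). For all 4 proteases the library mutant vehicle 2 was the lowest of its group, and mutant finasteride 2 was the lowest of its own group.

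Kit showed its largest levels in this group. It read 6.64, 6.29 and 6.60 in mutant on vehicle and 8.71, 7.13, 8.62, 8.55 and 8.14 in mutant on finasteride. The groups did not overlap, and Kit rose by 1.72 ± 0.29, or 3.30-fold (limma adjusted p = 0.000228). Mutant finasteride 2, the library with 7.13, was also the lowest of its group in the summed seminal vesicle values, at 103055 beside 1475000 to 3048800, and in the summed values of 8 nerve and glia genes, at 699 beside 1584 to 2867. It was the highest of its group in the summed values of macrophage genes (8773, beside 5791 to 7305), T and NK cell genes (989, beside 593 to 867), B and plasma cell genes (5173, beside 3802 to 4875), neutrophil genes (966, beside 374 to 723) and epithelial genes (66525, beside 51042 to 56144), and its 10 most abundant genes took 9.58% of the summed values, beside 13.8% to 19.8%. The part of these tissues and cells in the Kit difference was not tested. Without this library Kit rose by 1.996 (limma adjusted p = 1.8e-06).

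In all, 3 of 5 genes were higher with finasteride in the mutant, beside 26.3% of all tested genes higher and 22.3% lower. The same 3 genes had no overlap between the groups, as had 25.3% of all tested genes in that direction. The median of the 5 genes was 0.97, beside -0.0022 over all. Over the 11 libraries only Kit kept its call (1.53, limma adjusted p = 0.0251), while Cma1 was at 0.97 (limma adjusted p = 0.0954) and Tpsb2 at 1.07 (limma adjusted p = 0.0830). In that fit 1901 of all 16895 genes were called higher, beside 4439 over all 16 libraries. After quantile normalization Cma1 was at 0.45 (limma adjusted p = 0.153) and Tpsb2 at 0.58 (limma adjusted p = 0.0990), and neither passed. Without mutant vehicle 2 the rise of Cma1 was 0.63 (limma adjusted p = 0.0454), and without mutant finasteride 2 all 5 genes passed.

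On vehicle alone, the mutant had less of 2 proteases than the wild type. Cma1 was lower by 0.94 ± 0.28 on the log2 scale, that is -0.94 (limma adjusted p = 0.0187), and Tpsb2 stood at -1.03 ± 0.31 (limma adjusted p = 0.0195). Mcpt4 differed by -1.0 ± 0.38 (95% interval -1.81 to -0.19, limma adjusted p = 0.0558) and Cpa3 by -0.63 ± 0.30 (limma adjusted p = 0.121). Kit differed by -0.18 ± 0.33 (95% interval -0.87 to 0.52, limma adjusted p = 0.722). The wild type and mutant libraries did not overlap for Cma1, Mcpt4 and Tpsb2, as was so for 27.9% of all tested genes in the same direction. The 2 of 5 genes called lower stood beside 17.5% of all tested genes called lower and 14.3% called higher. Neither call held without mutant vehicle 2, with Cma1 then at -0.60 (limma adjusted p = 0.104) and Tpsb2 at -0.74 (limma adjusted p = 0.105). Cma1 also lost its call without wild type vehicle 1, and Tpsb2 without wild type vehicle 2. After quantile normalization neither passed, with Cma1 at -0.62 (limma adjusted p = 0.110) and Tpsb2 at -0.72 (limma adjusted p = 0.0958). The same held over the 11 libraries, with Cma1 at -1.07 (limma adjusted p = 0.141) and Tpsb2 at -1.18 (limma adjusted p = 0.123). In that fit 884 of all 16895 genes were called lower, beside 2961 over all 16 libraries.

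Between the genotypes on finasteride, all 5 tested genes were higher in the mutant, and in none did a mutant library overlap a wild type one. Mcpt4 differed by 1.92 ± 0.29 (limma adjusted p = 4.22e-05) and Cma1 by 1.81 ± 0.22 (limma adjusted p = 3.77e-06), that is 3.78-fold and 3.51-fold. Tpsb2 was 3.24-fold, Kit 3.21-fold and Cpa3 2.63-fold higher, with limma adjusted p from 1.92e-05 to 8.54e-05. This comparison called much of the transcriptome, with 33.9% of all tested genes higher and 29.7% lower, and 21.8% higher with no overlap. The median of the 5 genes was 1.70, beside 0.023 over all. All 5 calls held over the 11 libraries, with limma adjusted p from 0.00211 to 0.0127. There 3780 of all 16895 genes were called higher, beside 5735 over all 16 libraries.

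The finasteride effect itself was compared between the genotypes by the interaction term of the same model. It was positive for all 5 genes, beside 30.2% of all tested genes with a positive and 26.6% with a negative call. Mcpt4 had 2.92 ± 0.48 (limma adjusted p = 0.000131), Cma1 2.75 ± 0.36 (limma adjusted p = 1.66e-05) and Tpsb2 2.72 ± 0.39 (limma adjusted p = 4.24e-05). Cpa3 had 2.02 ± 0.38 (limma adjusted p = 0.000357) and Kit 1.86 ± 0.41 (limma adjusted p = 0.00147). The finasteride differences that enter it, in wild type and then in the mutant, were -1.78 and 0.97 for Cma1, -1.60 and 0.42 for Cpa3, and -0.14 and 1.72 for Kit. The comparisons share groups of libraries and are not independent of one another. Over the 11 libraries the term of Kit was 1.55 and no longer passed (limma adjusted p = 0.0602), while the other 4 kept their calls. There 2936 of all 16895 genes had a positive call, beside 5108 over all 16 libraries.

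**Figure D2:**
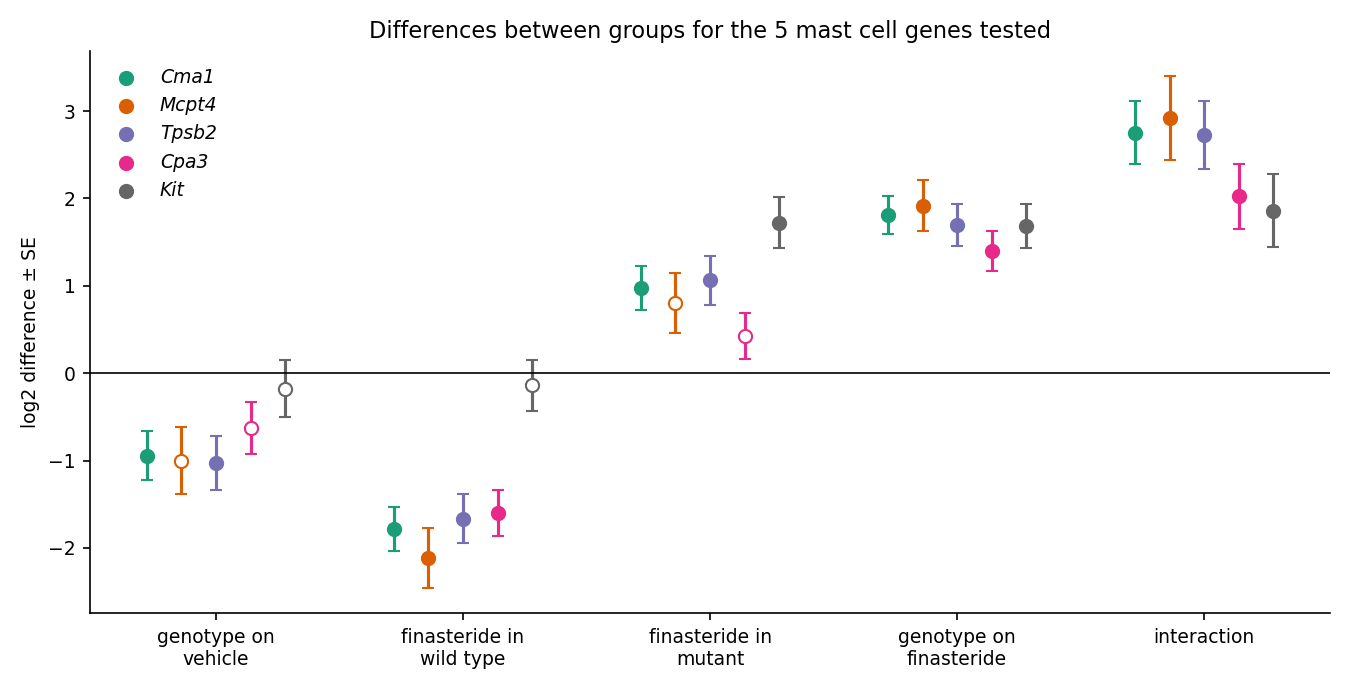
Log2 differences (vertical axis) of the 5 tested genes in the 4 comparisons of groups and in the interaction; points are limma estimates, error bars SE, filled points have an adjusted p under 0.05 and open points do not. The proteases lie below 0 with finasteride in wild type (-2.11 to -1.60), where Kit is at -0.14, and all 5 genes lie above 0 between genotypes on finasteride.

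Set side by side by group mean, the proteases shared 1 order except in the upper pair of groups, which were not separated. The order is that of means only, since other groups overlapped in several cases as well. Cma1 averaged 6.65 ± 0.15 (SD, n = 5) in mutant on finasteride, 6.62 ± 0.14 (n = 3) in wild type on vehicle, 5.67 ± 0.63 (n = 3) in mutant on vehicle and 4.84 ± 0.40 (n = 5) in wild type on finasteride. Tpsb2 followed the same order at 6.95 ± 0.28, 6.91 ± 0.19, 5.89 ± 0.54 and 5.25 ± 0.50. For both genes the upper pair of groups differed by less than the SD within either group. In Mcpt4 and Cpa3 wild type on vehicle was nominally above mutant on finasteride, at 6.67 ± 0.29 against 6.48 ± 0.27 and at 6.41 ± 0.33 against 6.20 ± 0.43, again within the SD. Mutant on vehicle came next in all 4 genes, with its libraries the most spread (SD 0.48 to 0.89, beside 0.14 to 0.50 elsewhere), and wild type on finasteride was last. The difference between these groups was not tested. They overlapped in all 4 genes, with mutant vehicle 2 below wild type finasteride 1 (4.98 against 5.51 in Cma1). Kit had another order: mutant on finasteride averaged 8.23 ± 0.65, and the other 3 groups, at 6.69 ± 0.31, 6.55 ± 0.30 and 6.51 ± 0.19, were within their SD of one another.

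Fcer1a and Ms4a2, the receptor chains that bind IgE and amplify its signal, had low values. If the deposited scale shrinks low values, which was not tested, differences there would be understated. Fcer1a read 3.21, 3.33 and 3.84 in wild type on vehicle, 2.69, 1.05, 2.66, 0.97 and 1.58 in wild type on finasteride, 3.42, 3.27 and 3.63 in mutant on vehicle, and 3.53, 3.55, 4.15, 3.58 and 3.53 in mutant on finasteride. All wild type finasteride libraries were thus below all others. Of the 16895 genes tested, 18.9% were lower with no overlap with finasteride in wild type. Between the genotypes on finasteride 21.8% were higher in the mutant with no overlap. In a model of all 29535 genes with no minimum level, Fcer1a fell by 1.67 ± 0.39 with finasteride in wild type (limma adjusted p = 0.00507), where 11.6% of all genes were lower. It was higher by 1.88 ± 0.33 in mutant than in wild type on finasteride (limma adjusted p = 0.000199), where 21.1% of all genes were higher, and its interaction was 1.90 ± 0.54 (limma adjusted p = 0.0120, with 18.4% of all genes positive). On vehicle the genotypes differed by -0.02 ± 0.43 (limma adjusted p = 0.987). Finasteride in the mutant gave 0.23 ± 0.39 (limma adjusted p = 0.744).

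Ms4a2 read 2.80, 3.05 and 2.77 in wild type on vehicle and 1.41, 1.12, 2.68, 2.45 and 2.90 in wild type on finasteride. It ranged from 2.42 to 2.88 in mutant on vehicle and from 2.32 to 2.92 in mutant on finasteride. Its lowest values were those of wild type finasteride 1 and 2, and the groups overlapped. None of its comparisons passed, the nearest being finasteride in wild type at -0.76 ± 0.37 (limma adjusted p = 0.172).

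Within each library, the genes were also set against one another and against other cell types, which removes scaling between libraries. The mean log2 value of the 4 proteases minus that of 10 fibroblast and matrix genes averaged -3.69 ± 0.04 (SD, n = 3) in wild type on vehicle, -3.77 ± 0.49 (n = 3) in mutant on vehicle and -3.54 ± 0.13 (n = 5) in mutant on finasteride. In wild type on finasteride it averaged -4.91 ± 0.34 (n = 5), and all 5 libraries of that group (-5.47 to -4.55) lay below all libraries of the other groups, the lowest of which was at -4.31. Against 6 pan-leukocyte genes the picture differed. The difference averaged -1.60 ± 0.14 in wild type on vehicle, -2.73 ± 0.45 in wild type on finasteride, -2.35 ± 0.66 in mutant on vehicle and -2.76 ± 0.51 in mutant on finasteride. On this scale wild type on vehicle was above every other library, while both finasteride groups overlapped, at -3.37 to -2.25 and -3.55 to -2.22.

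Kit and Cpa3, often read together as mast cell markers, did not keep a fixed distance. Kit minus Cpa3 was 0.15 to 0.43 in wild type on vehicle and 0.41 to 1.01 in mutant on vehicle, against 1.39 to 2.40 and 1.68 to 2.35 in wild type and mutant on finasteride. Finasteride libraries of both genotypes were therefore all above the vehicle libraries, in wild type with lower Cpa3 and in the mutant with higher Kit. By contrast, Mcpt4 minus Cma1 stayed between -0.52 and 0.25 over the 16 libraries. The other proteases varied more against Cpa3, with Cma1 minus Cpa3 at -0.30 to 0.93 and Tpsb2 minus Cpa3 at 0.03 to 1.22. In both of these differences vehicle and finasteride libraries overlapped in wild type but not in the mutant. Cma1 minus Cpa3 was -0.30 to -0.007 in mutant on vehicle and 0.22 to 0.93 in mutant on finasteride. Tpsb2 minus Cpa3 was 0.03 to 0.16 and 0.34 to 1.22 in the same groups.

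**Figure D3:**
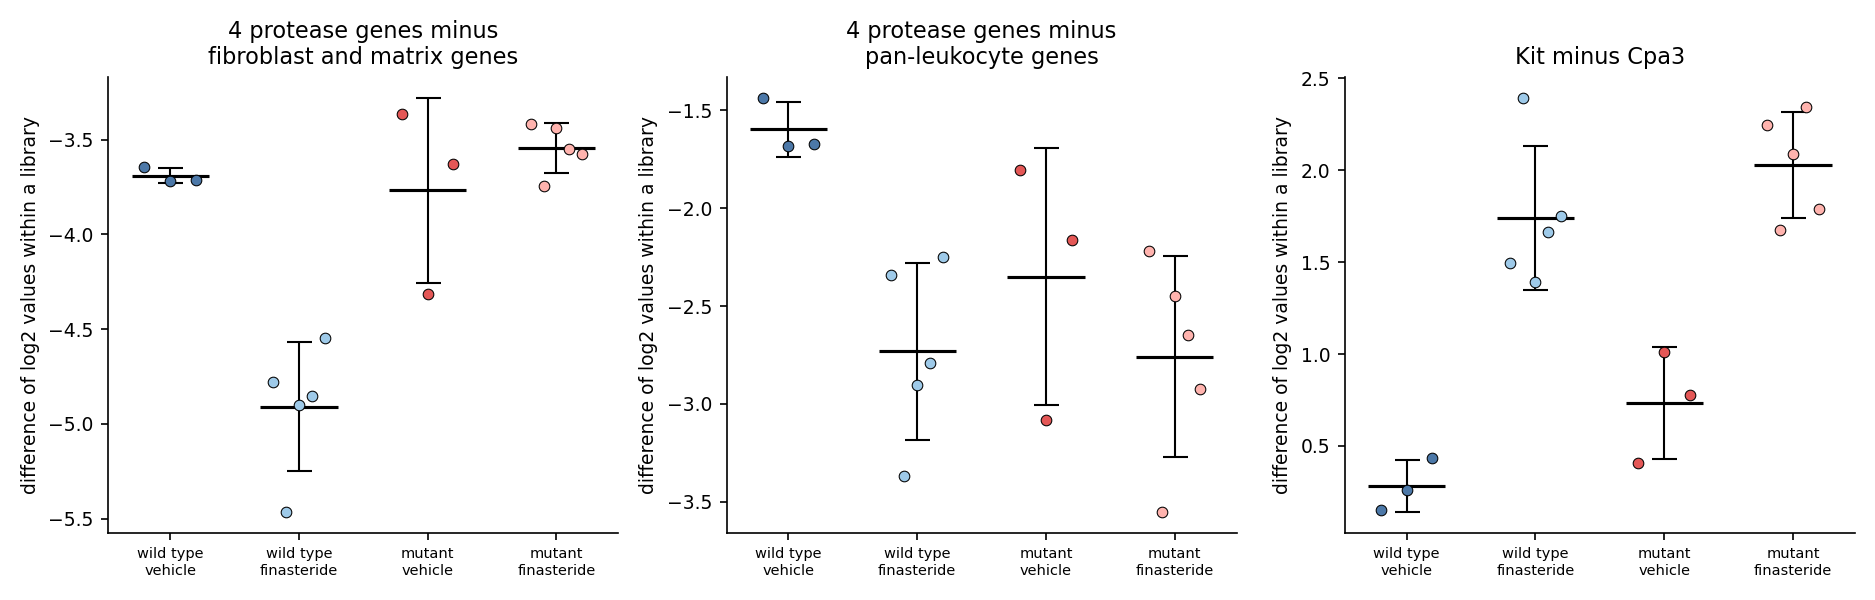
Differences of log2 values within a library (vertical axes): the mean of 4 protease genes minus the mean of 10 fibroblast and matrix genes, the same minus 6 pan-leukocyte genes, and Kit minus Cpa3; points are libraries, bars means and error bars SD (n = 3 or 5). Wild type on finasteride is lowest against fibroblast genes (-5.47 to -4.55), and Kit minus Cpa3 is at least 1.39 in all finasteride libraries and at most 1.01 in vehicle libraries.

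As a description over the 16 libraries, which share 4 groups, the 4 proteases correlated with one another at Pearson r of 0.91 to 0.97 and with Kit at 0.57 to 0.63. Fcer1a had r of 0.79 to 0.83 with the proteases and Ms4a2 0.38 to 0.45. The genes whose 16 values were most like the mean of the 5 tested genes were the vasopressin receptor Avpr1a (r = 0.945), the carbonic anhydrase Car13 (0.942), Pir (0.942), Clcn6 (0.940), the cysteine protease Ctsk (0.937), the chemokine Cxcl12 (0.936), Fam198b (0.934), the lysophosphatidic acid receptor Lpar1 (0.933), the sarcoglycan Sgcb (0.933) and Tenm4 (0.929). Since Kit followed another order, likeness was also taken to the 4 proteases alone and to Kit alone, a choice made after the values were seen. The proteases alone were led by Wisp1 (r = 0.939), Slc41a3 (0.934), Ptn (0.931) and Efemp1 (0.930). Avpr1a, Ctsk, Sgcb and Tenm4 were again among the 10, as was Dclk1 (0.912). The mast cell receptor Mrgprb1 was the last of the 10 (0.911). Kit alone was led by Acacb (0.974), Ldhd (0.974) and Gprc5b (0.973), and its 10 shared no gene with the other lists.

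Other genes of mast cell granules and mediators moved less uniformly. Of the 13 tested, 7 were lower and 1 was higher with finasteride in wild type, and 8 were higher and 0 lower with finasteride in the mutant. Alox5, which starts leukotriene synthesis, fell by 0.82 ± 0.17 in wild type and rose by 0.81 ± 0.17 in the mutant (limma adjusted p = 0.00189 and 0.00118). Hpgds, the haematopoietic prostaglandin D synthase, fell by 0.65 ± 0.20 and rose by 0.74 ± 0.20 in the same comparisons (limma adjusted p = 0.0202 and 0.00739). Hdc, which makes histamine, went the other way: it rose by 1.52 ± 0.22 with finasteride in wild type (limma adjusted p = 0.000148) and stood at -0.49 ± 0.22 in the mutant (limma adjusted p = 0.0746). Srgn, the core protein of serglycin that holds the proteases in the granule, was at -0.26 ± 0.13 in wild type (limma adjusted p = 0.127) and rose by 1.05 ± 0.13 in the mutant (limma adjusted p = 1.66e-05). On vehicle, 3 of these genes were lower and 1 higher in the mutant, and on finasteride 8 were higher and 2 lower. The interaction was positive for 9 and negative for 1. Over the 11 libraries 0 passed on vehicle, 7 were higher and 2 lower on finasteride, and the interaction was positive for 7 and negative for 1. For finasteride, after quantile normalization 2 were lower and 1 higher in wild type and 5 higher and 1 lower in the mutant, and over the 11 libraries 0 lower and 1 higher, and 5 higher and 0 lower. Alox5 and Hpgds lost their wild type calls after quantile normalization (limma adjusted p = 0.168 and 0.531) and over the 11 libraries (0.0994 and 0.190), and their mutant calls after quantile normalization (0.396 and 0.553), Hpgds also over the 11 libraries (0.137). Hdc in wild type and Srgn in the mutant passed under each of these, and Hdc in the mutant passed as a fall after quantile normalization (-1.06, limma adjusted p = 0.00148). The list's medians were -0.25 for the genotypes on vehicle, -0.36 for finasteride in wild type, 0.74 in the mutant and 0.89 for the genotypes on finasteride.

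Genes that carry the signal of Kit and of the IgE receptor, many of which act in other leukocytes too, mostly rose with finasteride in the mutant, with 13 of 16 higher and 0 lower. In wild type 1 was higher and 5 lower. Fcer1g, the gamma chain shared by several Fc receptors, fell by 0.90 ± 0.21 in wild type (limma adjusted p = 0.00408) and rose by 1.31 ± 0.21 in the mutant (limma adjusted p = 0.000144). Lyn, the kinase that phosphorylates the receptor chains, fell by 0.92 ± 0.12 and rose by 0.51 ± 0.12 (limma adjusted p = 7.57e-05 and 0.00242). Syk, the kinase recruited next, was at -0.34 ± 0.21 in wild type (limma adjusted p = 0.214) and rose by 2.14 ± 0.21 in the mutant (limma adjusted p = 1.56e-06). Rgs13, a brake on G protein signalling in mast cells, averaged 4.95 in wild type on vehicle and 2.17, 2.30 and 3.22 in wild type on finasteride, mutant on vehicle and mutant on finasteride. It was lower with finasteride in wild type by 2.79 ± 0.43, a difference of -2.79 (limma adjusted p = 0.000288), and lower in the mutant on vehicle at -2.65 ± 0.49 (limma adjusted p = 0.000744). In the mutant its finasteride difference was 0.92 ± 0.43 (limma adjusted p = 0.0918). After quantile normalization 12 of the 16 genes were higher and 0 lower in the mutant and 1 higher and 2 lower in wild type, and over the 11 libraries 10 and 0, and 1 and 2. Fcer1g lost its wild type call under both (limma adjusted p = 0.0930 and 0.0868), and Lyn its mutant call over the 11 libraries (0.133). Rgs13 kept both of its calls.

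Among 13 other surface receptors of mast cells tested, 8 were lower and 0 higher with finasteride in wild type, and 8 were higher and 0 lower in the mutant. Csf2rb, the beta chain shared by the receptors for IL-3, IL-5 and GM-CSF, fell by 1.54 ± 0.24 in wild type and rose by 1.63 ± 0.24 in the mutant (limma adjusted p = 0.000285 and 6.57e-05). Il1rl1, the receptor for IL-33, fell by 1.10 ± 0.39 in wild type (limma adjusted p = 0.034) and stood at 0.62 ± 0.39 in the mutant (limma adjusted p = 0.199). Mrgprb1, a receptor gene of the Mas-related family found in mast cells, fell by 1.32 ± 0.32 in wild type (limma adjusted p = 0.00509), with 0.55 ± 0.32 in the mutant (limma adjusted p = 0.17). These counts depended on the scaling and the libraries: after quantile normalization 2 were lower and 1 higher in wild type and 3 higher and 1 lower in the mutant, and over the 11 libraries 1 and 0, and 5 and 0. Csf2rb kept both calls, whereas Il1rl1 (limma adjusted p = 0.147 and 0.291) and Mrgprb1 (0.0585 and 0.0778) lost theirs under both.

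The ligands that feed or attract mast cells included Kitl, the stem cell factor that Kit binds. Kitl averaged 9.69 in wild type on vehicle, 8.71 in wild type on finasteride, 10.57 in mutant on vehicle and 10.12 in mutant on finasteride. It fell by 0.98 ± 0.19 with finasteride in wild type (limma adjusted p = 0.00113) and was higher in the mutant by 0.88 ± 0.21 on vehicle (limma adjusted p = 0.00534), where the proteases were lower or did not pass, and by 1.41 ± 0.16 on finasteride (limma adjusted p = 2.54e-06). In the mutant its finasteride difference was -0.45 ± 0.19 (limma adjusted p = 0.0625), where Kit rose. Il33, an alarmin of stromal and epithelial cells that activates mast cells, fell by 1.03 ± 0.13 in wild type and rose by 0.79 ± 0.13 in the mutant (limma adjusted p = 7.03e-05 and 0.000183). Of the 10 ligands tested, 6 were lower and 0 higher with finasteride in wild type, and 6 were higher and 0 lower in the mutant. After quantile normalization 4 were lower and 1 higher in wild type and 5 higher and 0 lower in the mutant, and over the 11 libraries 1 and 0, and 4 and 0. Il33 kept both calls. Over the 11 libraries Kitl lost its call for finasteride in wild type (-0.97, limma adjusted p = 0.0518) and for the genotypes on vehicle (0.87, limma adjusted p = 0.112), but not for the genotypes on finasteride. With libraries centred on the median gene its finasteride difference in the mutant passed as a fall (-0.58, limma adjusted p = 0.0112).

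Transcription factors of mast cells did not share 1 pattern. Of 9 tested, 2 were higher and 3 lower with finasteride in wild type, and 5 were higher and 2 lower in the mutant. After quantile normalization 1 was higher and 1 lower in wild type and 4 higher and 2 lower in the mutant, and over the 11 libraries 0 and 1, and 3 and 0. Gata2, which prostate epithelium also makes, averaged 12.53, 13.14, 12.80 and 12.01 in wild type on vehicle, wild type on finasteride, mutant on vehicle and mutant on finasteride. It rose by 0.61 ± 0.20 with finasteride in wild type and fell by 0.78 ± 0.20 in the mutant (limma adjusted p = 0.0274 and 0.00536), in each case opposite to the protease genes that passed. Mitf, a regulator of Kit and of protease genes, fell by 0.34 ± 0.11 with finasteride in the mutant (limma adjusted p = 0.0213). Lyl1, a haematopoietic basic helix-loop-helix factor, fell by 0.63 ± 0.19 in wild type and rose by 1.35 ± 0.19 in the mutant (limma adjusted p = 0.0175 and 4.66e-05). Lyl1 kept its mutant call and lost that in wild type after quantile normalization and over the 11 libraries (limma adjusted p = 0.503 and 0.185). Gata2 lost its wild type call under both (0.0537 and 0.226) and its mutant call over the 11 libraries (0.0863), as did Mitf (0.213).

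Of the other cell types, several moved in the same groups and some did not. Fibroblast and matrix genes were lower for 6 of 10 and higher for 1 with finasteride in wild type, and higher for 6 with 0 lower in the mutant. Their summed level ranged from 23286 to 26618 in wild type on vehicle, 12993 to 19182 in wild type on finasteride, 12984 to 14911 in mutant on vehicle and 17255 to 21622 in mutant on finasteride. Macrophage genes were lower for 6 of 10 in wild type and higher for all 10 in the mutant, with summed levels of 4523 to 4813, 2420 to 3619, 3034 to 3146 and 5791 to 8773 in the same order of groups. Adipocyte genes were lower for 8 of 8 in wild type, whereas 3 were higher and 1 lower in the mutant, with summed levels of 3373 to 5057, 568 to 2423, 1692 to 2386 and 2694 to 4057. Nerve and glia genes were lower for 7 of 8 in wild type and higher for 6 of 8 in the mutant, and pan-leukocyte genes were lower for 5 of 6 in wild type and higher for 5 of 6 in the mutant, with 1 lower there. T and NK cell genes were lower for 4 of 10 in wild type and higher for 8 in the mutant, and B and plasma cell genes were lower for 3 of 7 and higher for all 7 (median 2.97). Of smooth muscle genes 1 of 8 was higher and 0 lower in wild type, and all 8 were higher in the mutant. Endothelial genes were higher for 1 of 8 and lower for 2 in wild type and higher for 7 in the mutant, and epithelial genes were higher for 3 of 8 and lower for 1 in wild type and higher for 2 and lower for 2 in the mutant. Of eosinophil genes 1 of 4 was higher and 1 lower in wild type and 3 were higher and 1 lower in the mutant, and of neutrophil genes 0 of 2 passed in wild type and both were higher in the mutant.

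Many of these counts fell over the 11 libraries, as did those over all 16895 genes tested. Genes called lower with finasteride in wild type went from 3694 to 844. Genes called higher with finasteride in the mutant went from 4439 to 1901. The genes lower in wild type were then 3 of 10 for fibroblast, 3 of 10 for macrophage, 6 of 8 for adipocyte, 3 of 8 for nerve and glia, 0 of 6 for pan-leukocyte, 1 of 10 for T and NK cell and 2 of 7 for B and plasma cell genes. Those higher in the mutant were 2, 9, 1, 3, 5, 6 and 6 in the same order, and 1 of 8 for smooth muscle and 5 of 8 for endothelium. The part of these cells in the mast cell gene differences was not tested, beyond the within-library differences above.

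For Kit, the markers of its other sources were examined as well. Of 7 such genes 3 were tested, and with finasteride in the mutant 1 was higher, 1 lower and 1 did not pass. Ano1, the chloride channel of Cajal-type interstitial cells that epithelia also make, averaged 11.85, 11.03, 10.96 and 12.58 in wild type on vehicle, wild type on finasteride, mutant on vehicle and mutant on finasteride. It rose by 1.62 ± 0.11 with finasteride in the mutant (limma adjusted p = 3.98e-08), where Kit rose, and fell by 0.83 ± 0.11 with finasteride in wild type (limma adjusted p = 7.55e-05), where Kit did not pass. Etv1, a transcription factor of Cajal-type cells, stood at 0.42 ± 0.18 with finasteride in the mutant (limma adjusted p = 0.0641). Pmel, a protein of the melanosome, was measured at group means of 6.19 to 6.68 and fell by 0.49 ± 0.15 in the mutant (limma adjusted p = 0.0145), where Kit rose, but 0 of the list's genes were lower there over the 11 libraries. The melanocyte genes Dct, Mlana, Tyr and Tyrp1 were under the minimum level. Of 6 genes of the basophil list 3 were tested. Itga2b, an integrin also found on platelets and on mast cells, rose by 1.26 ± 0.34 with finasteride in the mutant (limma adjusted p = 0.00601), Ifitm1 rose by 0.55 ± 0.16 with finasteride in wild type (limma adjusted p = 0.0151), and Il4 passed in none of the comparisons. The list's medians were 0.50 for finasteride in wild type and 0.47 in the mutant. Over the 11 libraries 0 of the 3 passed. Mcpt8, the defining protease of basophils, was under the minimum level, at log2 values of 0.39 to 2.45, and Prss34, another basophil protease, read 2.39 to 3.75. Mcpt1 and Mcpt2, the chymases of mucosal mast cells, were under it as well, at 0.47 to 1.93 and 0.07 to 2.38. These near-identical chymase genes, and Tpsb2 with its neighbour Tpsab1, can share reads, and how such reads were counted is not given in the sources used here.

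**Figure D4:**
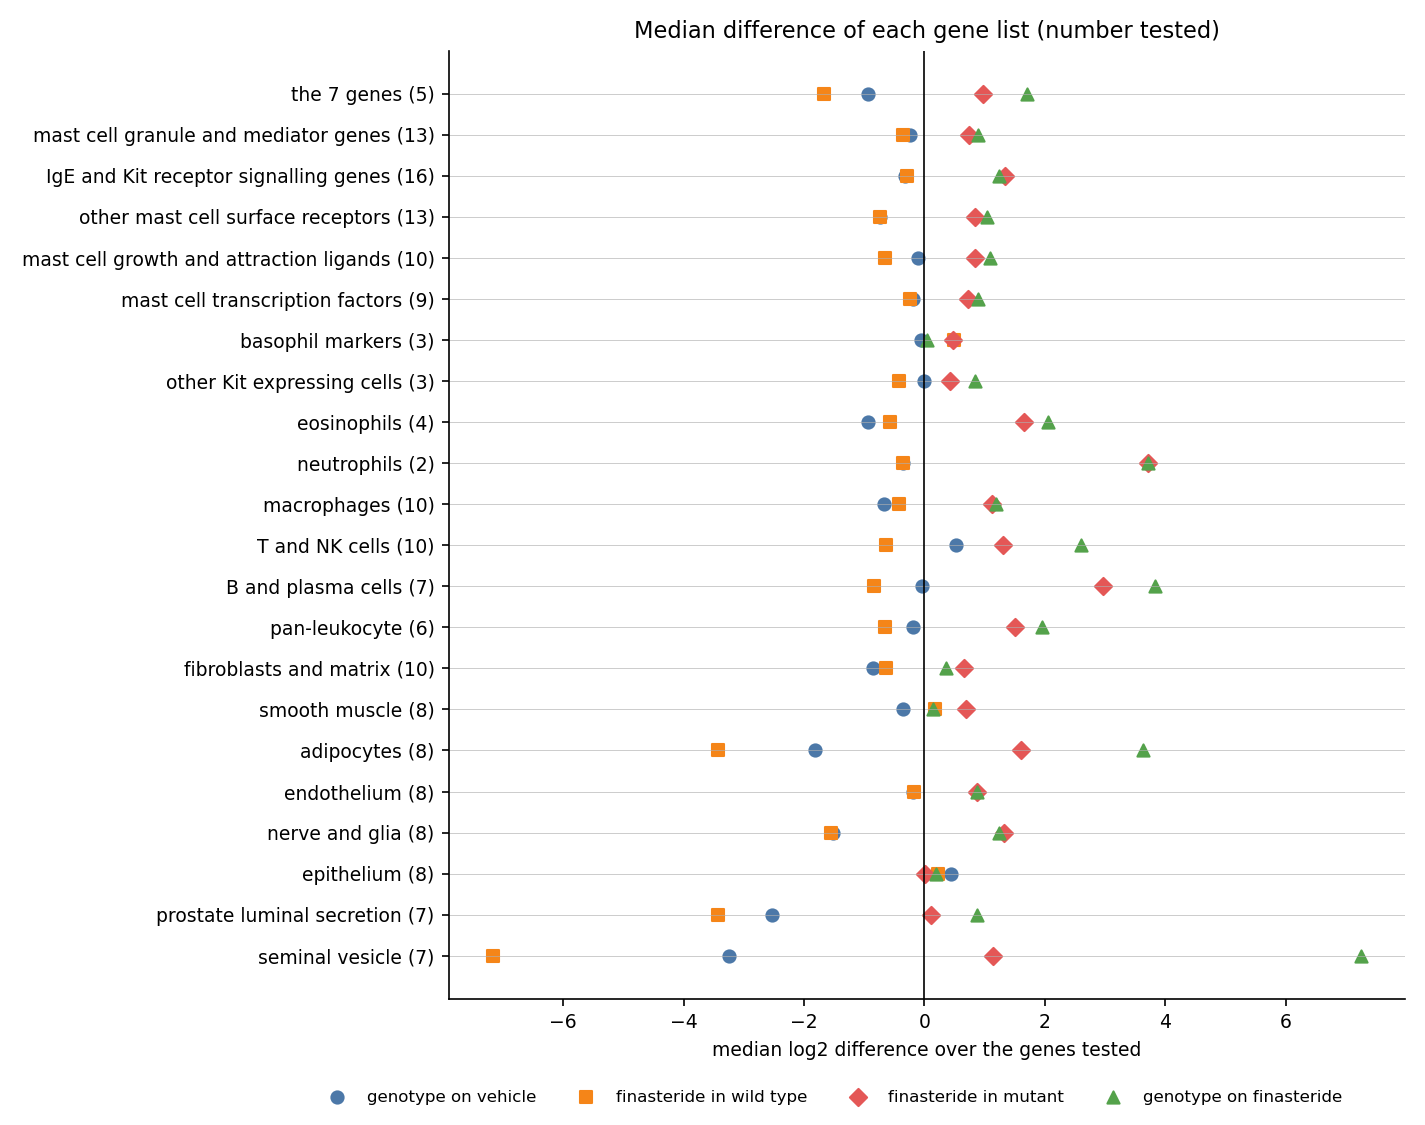
Median log2 difference (horizontal axis) over the tested genes of each list, with their number in brackets, in the 4 comparisons of groups marked by shape and colour. The mast cell genes lie at -1.66 for finasteride in wild type and 0.97 in the mutant, beside -0.63 and 0.66 for fibroblast and matrix genes and -3.43 and 1.60 for adipocyte genes.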

How the data were processed

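Poly-A RNA-seq of mouse prostate (TruSeq, HiSeq2000) was deposited by the authors as 1 table of normalized log2 values for 29535 genes; the base was inferred from the column sums. Per the submitters' processing notes CASAVA 1.8.2, TopHat, Cufflinks, DESeq and DESeq2 were used with build mm9; which of them made the table is not given in the sources used here. Counts were not recovered.

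Groups came from the labels, whose running numbers pair no samples. limma 3.58.1 in R 4.3.3 fitted the 4 group means over 16 libraries, with a variance trend, to the 16895 genes whose mean, out of log2, reached 10. P-values are two-sided, adjusted by Benjamini and Hochberg over these genes, with a threshold of 0.05. The model was tested on simulated data. The 7 genes, the gene lists and the tests were chosen with earlier results of these data known. Named list genes are a subset of those with the 4 lowest p in a comparison and the most abundant of each list; Hpgds, Il1rl1 and other members with a familiar mast cell role were added after their values were seen. Likeness named the 10 genes of highest r. A library was treated as mixture-like when both weights exceeded 0.2 and the residual SD was under 0.1 log2 over genes of at least 8. Mutant finasteride 5 met the weights but missed the residual SD at 0.129, so the 11 libraries are not shown to be free of mixtures. Alternatives were other minimum levels, scalings, pseudocounts, variance models, array weights, single libraries left out and 11 libraries; for lists and their named genes they were chosen after seeing the data. The mutated gene is not reported here.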

Additional observations from a re-analysis of the deposited data

Results flagged for a closer look

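Fcer1a in mutant finasteride 3 read 4.15, above the other 4 libraries of its group at 3.53 to 3.58, with a gap that took 0.916 of the group's range. Of 14 groups of 5 libraries examined, it was the only one past Dixon's critical value, and chance flags about 1 in 20.

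The finasteride effect differed between mutant and wild type, by the interaction term of the model, in Cma1 (2.75), Mcpt4 (2.92), Tpsb2 (2.72), Cpa3 (2.02) and Kit (1.86).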

How the results depend on the processing

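With finasteride in wild type 4 genes passed in each fit without 1 library, and between genotypes on finasteride and in the interaction 5 did. For the genotypes on vehicle, where 2 passed, 0 passed after quantile normalization, 4 with array weights, 0 over 11 libraries and 0 to 3 without 1 library. For finasteride in the mutant, where 3 passed, the numbers were 1, 5, 1 and 3 to 5. Quantile normalization reversed differences that had not passed: Kit to 0.11 for the genotypes on vehicle and to 0.20 for finasteride in wild type, and Cpa3 to -0.12 for finasteride in the mutant. With array weights Kit passed for finasteride in wild type at -0.38. In these cases the cause was not tested. Of the single-gene values under the alternatives, 615 kept direction and side of the threshold, 14 newly passed, 13 no longer passed and 3 reversed.

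Over all genes 5374 passed for the genotypes on vehicle (10763 with array weights, 1531 over 11 libraries), 6721 for finasteride given to wild type (11012 and 1445), 8206 for finasteride given to the mutant (12403 and 3431), 10757 for genotypes on finasteride (6946 over 11 libraries) and 9597 for the interaction (4963 over 11). Higher against lower, in that order, were 2413 and 2961, 3027 and 3694, 4439 and 3767, 5735 and 5022, and 5108 and 4489; after quantile normalization they were 2887 and 2448, 3704 and 2694, 3359 and 4815, 4407 and 6234, and 3724 and 5690. Centring on the median gene moved the median of all genes to -0.14 for finasteride in the mutant, -0.11 for genotypes on finasteride and -0.21 for the interaction. The interaction has no fit on only the groups compared. Depth is unknown, which limits Fcer1a and Ms4a2 most. No paired analysis was possible because the labels carry only running numbers.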
